A study of Drosophila melanogaster with 42 samples.

Results

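The isocitrate dehydrogenase family of Drosophila melanogaster was taken as the 6 genes of 15061 in the deposited tables whose symbols are Idh, l(1)G0156, CG6439, CG5028, CG32026 and CG3483. The genes were chosen by symbol and not by their values, though with earlier results of these data known. All 6 were found in each of the 4 tables. Their levels were followed by RNA-seq in F1 males, in heads and in the rest of the body (other parts), after restraint of the fathers or none. The comparisons ask whether restraint of a father changes gene expression in sons, and whether the transcription factor dATF-2 in the father matters for it.

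Isocitrate dehydrogenases convert isocitrate to 2-oxoglutarate. The NAD-dependent enzyme works in the mitochondrial matrix as a step of the TCA cycle and is built of alpha, beta and gamma subunits, with the catalytic site on the alpha subunit. The NADP-dependent enzyme is a separate protein that makes NADPH, the reductant for lipid synthesis and for defence against oxidants. Many mitochondrial enzymes of Drosophila have a further gene copy that is used mainly in the male germ line.

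Fathers were dATF-2KO males or w1118 males, and mothers were w1118 in every cross, so all sons of dATF-2KO fathers still carried a maternal copy of the gene. The dATF-2KO allele is a null that lacks the whole gene and had been backcrossed to w1118. Restrained fathers were held between sponge plugs for 10 h in each of 3 sessions. Unrestrained fathers were kept free, and by the paper also without medium. Each library was made from poly(A) RNA of 50 sons, 5 to 6 days old by the sample labels, whose heads had been shaken off after freezing. Other texts of the study give slightly different ages. Labels list 42 libraries. The 30 libraries used were 5 restrained and 5 unrestrained ones from each of 3 sets of sons: dATF-2KO other parts, dATF-2KO heads and w1118 heads, named by the father's genotype. Other parts with w1118 fathers have 6 and 6 libraries by the labels, but the 12 value columns of that table name neither sample nor group and were not used. Only its column of the authors' mean of the restrained group is given, with no SD or n, and restraint was not tested there. Whether each pool had a cross of its own is not stated, so the p-values cover only the spread from pool to pool.

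Values are FPKM, reads per length of transcript and per size of library, scaled by the authors within each table. Levels can be read across genes, but a difference between tables cannot be told apart from the scaling of the tables. The relative depth of libraries, read from the size of the smallest steps in the values, was 0.808 to 1.17 of the table median in other parts and 0.866 to 1.04 in heads, apart from restrained dATF-2KO heads replicates 4 and 5 at 1.39 and 1.45. Restrained replicate 3 of the dATF-2KO other parts stood apart, with 10 egg and yolk genes summing to 4166 FPKM against 11.0 to 13.4 FPKM in the other 9 libraries. Restrained replicate 3 of the dATF-2KO heads had 1217 FPKM of the same genes, against at most 63.1 FPKM in the others. In dATF-2KO heads only the yolk genes Yp1, Yp2 and Yp3 were high, at up to 499, 335 and 379 FPKM. The other listed genes had at most 3.81 FPKM there. The listed genes are normally expressed in females. Both libraries are called libraries with egg and yolk RNA below, although that of the heads was high in the yolk genes only. The restraint differences, shares, correlations and pathway lists that use these libraries are also given without them, for the mean shares, correlations and lists by a choice made after the data were seen. The gene of dATF-2 (Atf-2 in the tables) had 9.93 to 13.1 FPKM in dATF-2KO other parts, 69.1 to 75.0 FPKM in dATF-2KO heads and 66.7 to 74.7 FPKM in w1118 heads. With a null allele from the father, sons of dATF-2KO fathers would carry only the maternal copy. The head levels of both genotypes nevertheless overlapped, across tables scaled separately. Whether these levels reflect the fathers' genotype was not tested. The 13 photoreceptor genes listed summed to 20.7 to 23.7 FPKM in dATF-2KO other parts and to 36393 to 39268 FPKM in heads, as the tissue labels say.

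The positions below are those of the dm3 tables. Idh (FBgn0001248), the gene of the NADP-dependent enzyme, is listed at chr3L:8349504-8354006 with 6 start sites. The gene l(1)G0156 (FBgn0027291), which RefSeq names Idh3a for the alpha subunit, is at chrX:19412461-19415843. The gene CG6439 (FBgn0038922), named Idh3b for the beta subunit, is at chr3R:17842113-17845104. CG5028 (FBgn0039358), named Idh3g for the gamma subunit, is at chr3R:21506567-21510773 in a listed locus that it shares with the ribosomal protein gene RpL27. The further copies are CG32026 (FBgn0052026) at chr3L:8820605-8884292 and CG3483 (FBgn0035005) at chr2R:20333023-20334362. The listed locus of CG32026 spans 63688 bases and also holds CG43169 and dally, the gene of a cell-surface proteoglycan. Whether the counting used strand is not settled by the sources, so values of CG5028 and CG32026 are uncertain where reads of the overlapping genes could be shared. CG43169 had 106 to 153 FPKM in dATF-2KO other parts and 0.948 to 2.60 FPKM in heads, so that it was high where CG32026 was high (76.0 to 94.0 FPKM) and low where CG32026 was low (0.689 to 1.25 FPKM). In contrast, dally had 23.6 to 31.2 FPKM in dATF-2KO other parts and 45.2 to 55.4 FPKM in heads. The part of reads from CG43169 in the values of CG32026 was not tested. RpL27 had 1082 to 1281 FPKM in dATF-2KO other parts and 952 to 1181 FPKM in heads, far above CG5028 in both.

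Idh was the most abundant member in every library. In dATF-2KO other parts it had 606, 527, 522, 547 and 539 FPKM with restrained fathers, against 601, 558, 653, 573 and 621 FPKM with unrestrained fathers. In dATF-2KO heads it had 314, 316, 320.2, 319 and 317 FPKM with restrained fathers, against 341, 323, 330.1, 316 and 315 FPKM with unrestrained fathers. In w1118 heads it had 335, 336, 336, 343 and 333 FPKM with restrained fathers, against 331, 318, 297, 333 and 335 FPKM with unrestrained fathers. Restrained and unrestrained libraries overlapped in all 3 tables, and all 10 other-parts libraries were above all 20 head libraries. The authors' mean in w1118 other parts with restrained fathers was 689 FPKM, above every dATF-2KO library, in a table scaled on its own. Within a library, where the scaling cancels, Idh made up 42.4% ± 1.32 of the summed FPKM of the 6 genes in dATF-2KO other parts (SD, n = 10) and 45.9% ± 0.965 in heads (SD, n = 20). Without the libraries with egg and yolk RNA these shares were 42.3% ± 1.33 (SD, n = 9) and 45.8% ± 0.991 (SD, n = 19). The sum includes CG32026 and CG3483, which together held a mean of 11.5% of it in dATF-2KO other parts and 0.147% in heads. The Idh shares of the tissues therefore depend on this pair. The authors' means of restrained w1118 other parts give an Idh share of 49.0%, with no SD or n.

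**Figure D1:**
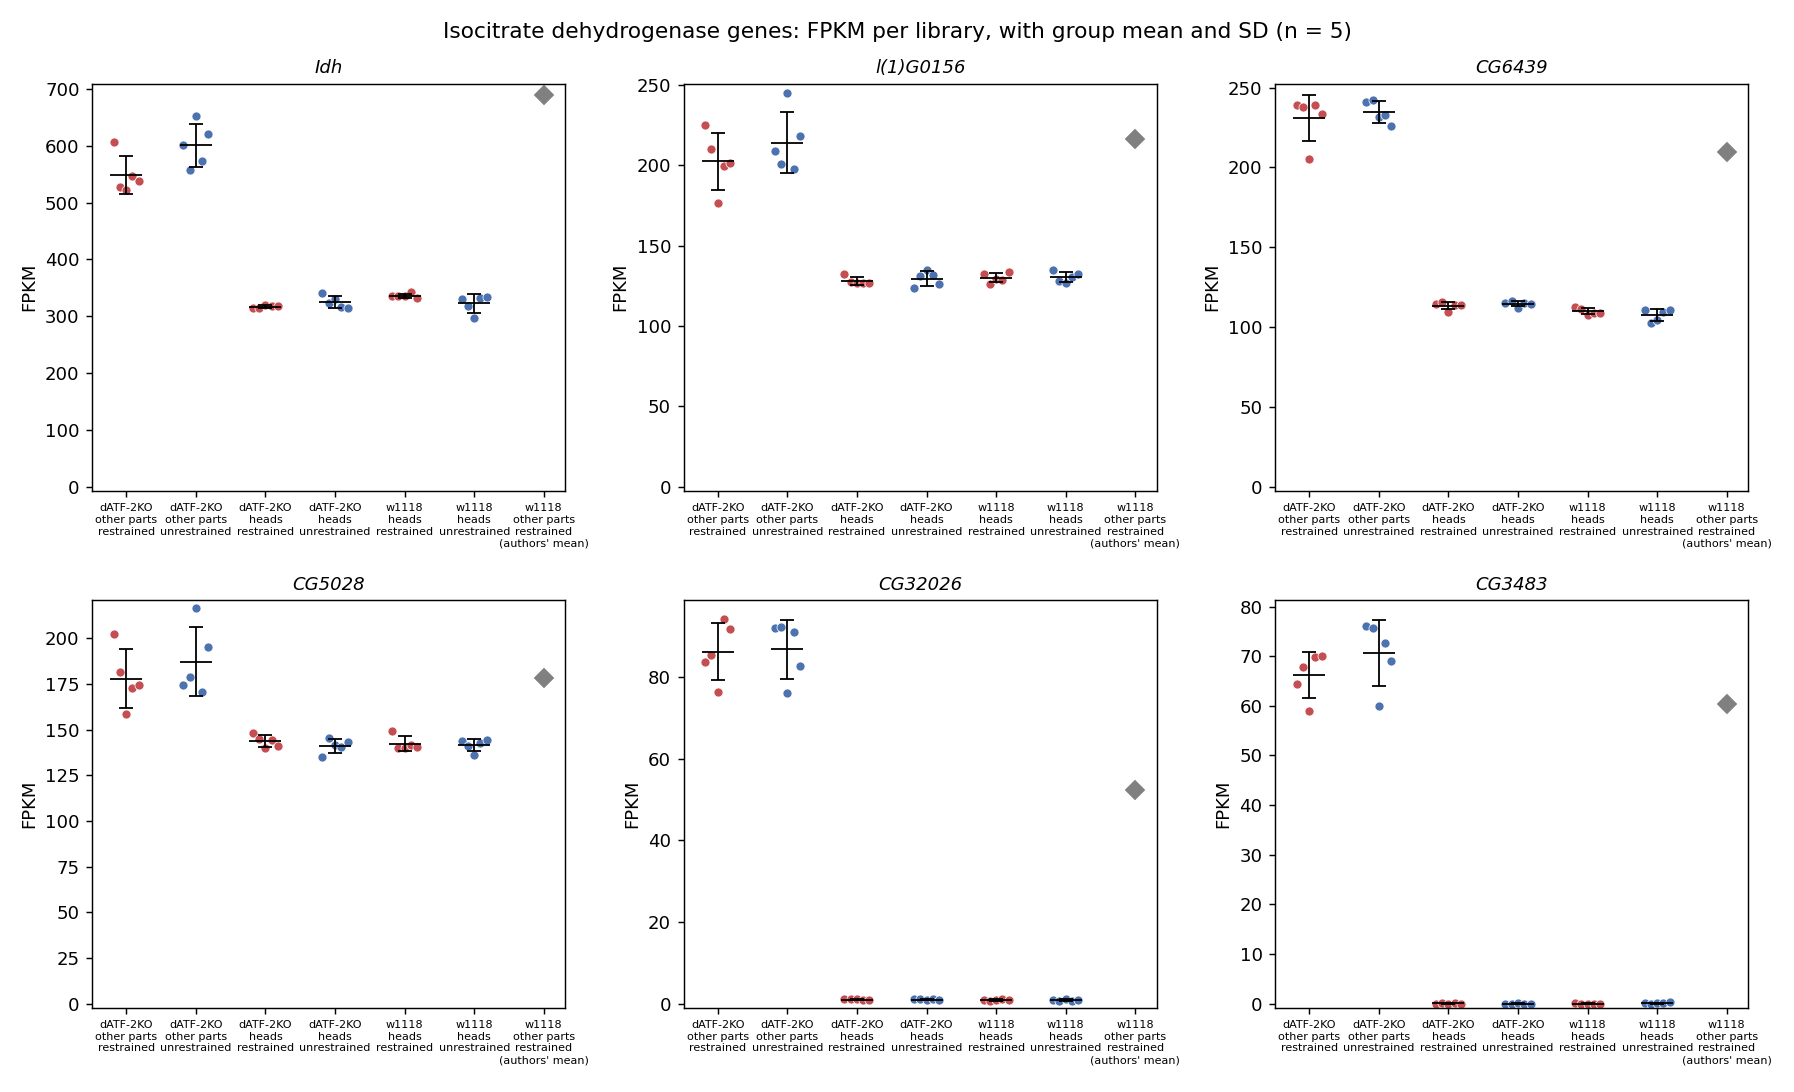
FPKM (vertical axes, from 0) of the 6 isocitrate dehydrogenase genes in each library (points), with group mean and SD (bars, n = 5), for restrained (red) and unrestrained (blue) fathers, and the authors' mean for w1118 other parts (grey diamonds). Idh runs from 297 to 653 FPKM, while CG32026 and CG3483 are seen only in other parts at this scale, from 58.9 to 94.0 FPKM, with heads at most 1.25 FPKM.

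The 3 subunit genes of the NAD-dependent enzyme changed order between tissues. In dATF-2KO other parts with restrained fathers, CG6439 (beta) had 239, 238, 205, 239 and 233 FPKM, against 241, 242, 232, 233 and 226 FPKM with unrestrained fathers. There l(1)G0156 (alpha) had 225, 210.2, 177, 199.8 and 201 FPKM with restrained fathers, against 209, 201, 245, 198 and 218 FPKM with unrestrained fathers. CG5028 (gamma) had 203, 182, 158, 173 and 174 FPKM with restrained fathers, against 175, 179, 217, 171 and 195 FPKM with unrestrained fathers. The order was beta, alpha, gamma in 9 of these 10 libraries. The exception, in which alpha was above beta, was unrestrained replicate 3, with a beta to alpha ratio of 0.947.

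In heads the order was the opposite in all 20 libraries. CG5028 was highest at 135 to 149 FPKM, l(1)G0156 followed at 123 to 135 FPKM and CG6439 was lowest at 103 to 116 FPKM. CG6439 was at 1.07 to 1.38 times CG5028 in dATF-2KO other parts, but at 0.774 to 0.851 times in dATF-2KO heads and 0.728 to 0.796 times in w1118 heads. As shares of the summed FPKM of the 3 genes, CG6439 took 37.4% ± 1.90, l(1)G0156 33.4% ± 0.881 and CG5028 29.2% ± 1.12 in dATF-2KO other parts (SD, n = 10). In heads CG6439 took 29.1% ± 0.735, l(1)G0156 33.8% ± 0.653 and CG5028 37.1% ± 0.481 (SD, n = 20). The ranges of CG6439 (33.4 to 39.1% against 27.6 to 30.8%) and of CG5028 (27.9 to 31.3% against 36.2 to 38.0%) did not overlap between other parts and heads, while those of l(1)G0156 did. Without the libraries with egg and yolk RNA the means were 37.3% in other parts and 29.1% in heads for CG6439, and 29.2% and 37.1% for CG5028, with the same ranges. These shares do not depend on the scaling of a table, but tissue and table cannot be told apart, and the difference was not tested. Nor was the part of reads from RpL27 in the values of CG5028, on which the order and the shares depend.

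**Figure D2:**
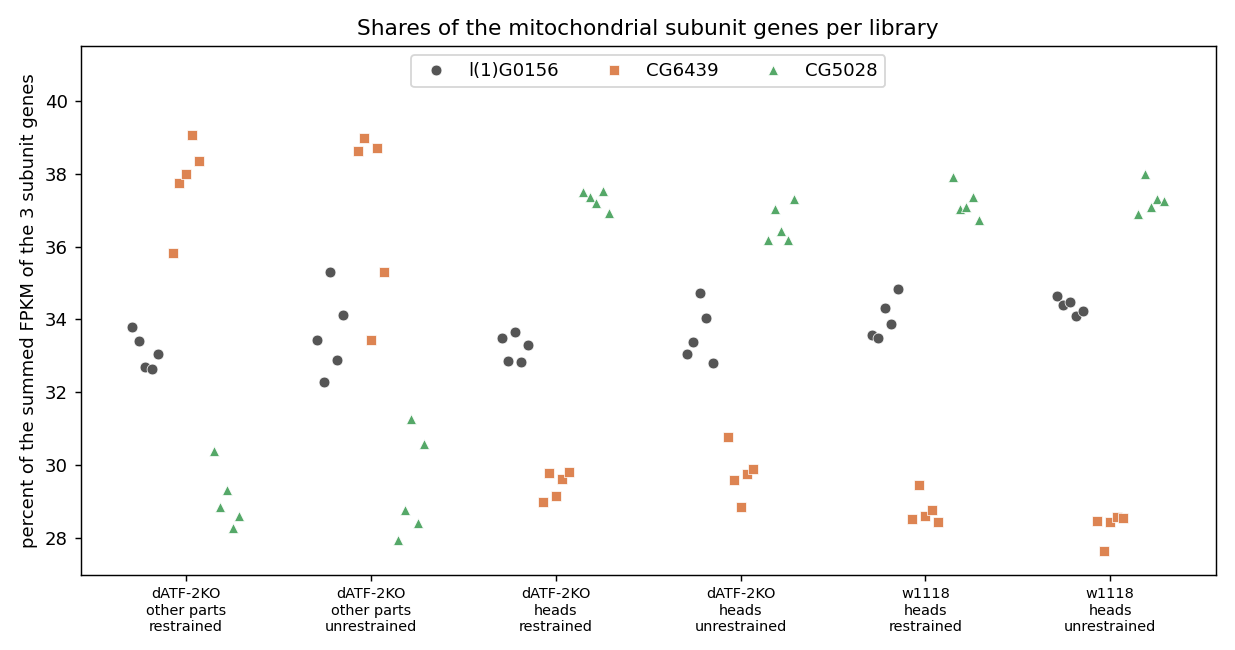
Share of the summed FPKM of l(1)G0156, CG6439 and CG5028 (vertical axis, percent, drawn from 27) taken by each gene in each library, by group (5 libraries each). CG6439 holds 33.4 to 39.1% in other parts and 27.6 to 30.8% in heads, CG5028 the reverse, and l(1)G0156 stays between 32.3 and 35.3%.

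The authors' mean of restrained w1118 other parts gave a further order, with l(1)G0156 at 216 FPKM, CG6439 at 209.9 FPKM and CG5028 at 179 FPKM. The shares from these means are 35.8% for l(1)G0156, 34.7% for CG6439 and 29.5% for CG5028. The first lies above all 10 dATF-2KO other-parts libraries, and the others lie within their ranges. A group mean has no spread here, so the genotypes cannot be set apart by it.

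CG32026 and CG3483 were found almost wholly in other parts. With restrained fathers, CG32026 had 83.5, 85.3, 76.2, 94.0 and 91.7 FPKM in dATF-2KO other parts, against 92.0, 92.1, 76.0, 91.0 and 82.6 FPKM with unrestrained fathers. CG3483 had 64.5, 67.8, 58.9, 69.8 and 70.1 FPKM with restrained fathers, against 76.2, 75.7, 59.9, 72.6 and 69.1 FPKM with unrestrained fathers. Both genes were lowest in replicate 3 of each group. In heads CG32026 had 0.689 to 1.25 FPKM and CG3483 0 to 0.332 FPKM. The median of CG32026 was 84.2 times higher in dATF-2KO other parts than in dATF-2KO heads, against 1.24 to 2.05 times for the other members apart from CG3483, each across separately scaled tables. The pair made up 9.17 to 12.5% of the family's summed FPKM in dATF-2KO other parts and 0.0966 to 0.208% in heads.

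FPKM values of a gene at low level are whole multiples of what 1 read is worth, which gave the reads behind these values. CG32026 rested on 2582 to 4064 reads a library in other parts and on 29 to 60 in heads. CG3483 rested on 1039 to 1690 reads in other parts and on 0 to 8 in heads, with 7 of 20 head libraries at 0. Counting error alone was thus 1.79% of the median for CG32026 in other parts, and about 15% in heads. The highest head value of CG3483, with 8 reads, was in unrestrained replicate 5 of the w1118 heads, which also had the highest mean log2 level of 21 testis genes among the heads, 1.39 against -0.10 to 0.81 in the other 19. The part of such traces in the head values was not tested.

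The defining testis genes were high in other parts and low in heads. All 21 were above 3 FPKM in every library of dATF-2KO other parts and summed to 10739 to 13728 FPKM, against 70.7 to 111 FPKM in heads, of which bol alone had 53.8 to 82.1 FPKM. The meiotic arrest gene nht was listed at 0 in all dATF-2KO heads. Across the 10 libraries of dATF-2KO other parts, deviations from the group means of CG32026 and CG3483 went together (Pearson's r = 0.96), and with the mean of the 19 testis genes of at least 5 FPKM (r = 0.99 for CG32026 and 0.97 for CG3483). CG6439 was next (r = 0.60), while l(1)G0156 (r = -0.38), Idh (r = -0.48) and CG5028 (r = -0.52) went the other way. Over the 9 libraries without restrained replicate 3 the values were 0.94 for the pair, 0.99 for CG32026, 0.96 for CG3483 and 0.49 for CG6439, while those of l(1)G0156 (r = -0.94), Idh (r = -0.73) and CG5028 (r = -0.94) lay farther from 0. These values describe libraries that share depth and scaling. In bulk tissue, fewer testis cells and less RNA per cell cannot be told apart.

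**Figure D3:**
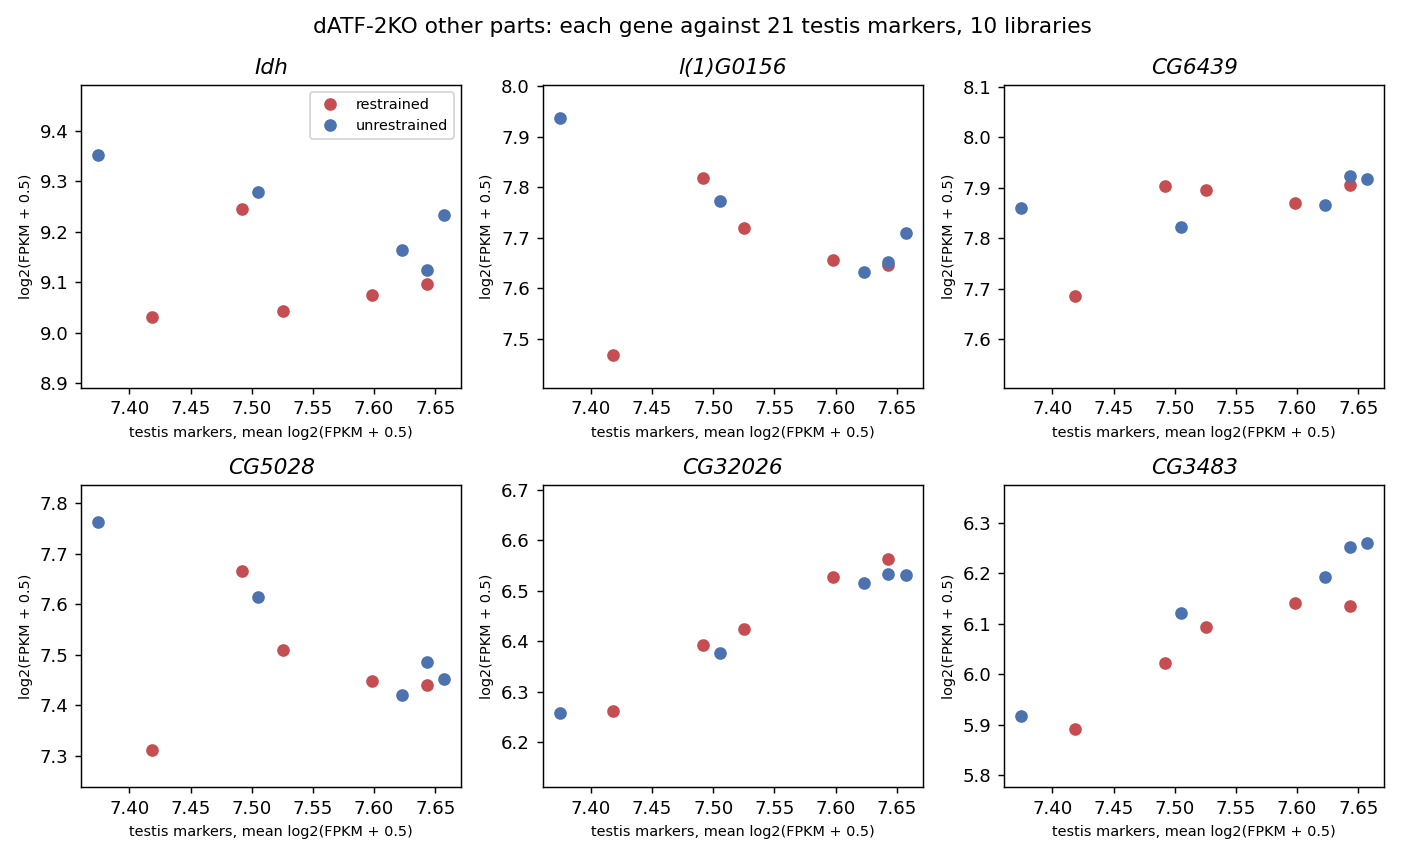
Level of each gene (vertical axes, log2(FPKM + 0.5), each spanning 0.6) against the mean log2(FPKM + 0.5) of 21 testis genes (horizontal axes) in the 10 dATF-2KO other-parts libraries, restrained (red) and unrestrained (blue). CG32026 and CG3483 climb with the testis genes from 7.37 to 7.66, which l(1)G0156, CG5028 and Idh do not.

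The paralog pair kept a narrow ratio within each group of dATF-2KO other parts. CG32026 was above CG3483 in all 10 libraries of dATF-2KO other parts, at a ratio of 1.26 to 1.35 with restrained fathers and 1.20 to 1.27 with unrestrained fathers. Within a group the coefficient of variation of the ratio was 2.43% with restrained and 2.54% with unrestrained fathers, against 3.39% and 3.21% from read counting alone. The mean ratio was 1.30 ± 0.0316 with restrained and 1.23 ± 0.0311 with unrestrained fathers (SD, n = 5 each), and 1.26 ± 0.0483 over all 10. Restraint was not tested on this ratio. In the authors' mean of restrained w1118 other parts the order was the opposite, with CG32026 at 52.3 FPKM and CG3483 at 60.3 FPKM, a ratio of 0.868. CG32026 was there at 24.2% of l(1)G0156, against 31.1 to 47.1% in the dATF-2KO libraries. The ratios lie within a table, yet genotype and table cannot be told apart and no test was made.

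The members also fell into groups by how they varied from library to library. In dATF-2KO other parts, l(1)G0156 and CG5028 deviated together (r = 0.96, 10 libraries) and Idh deviated with both (r = 0.85 and 0.86), while CG6439 went with l(1)G0156 at r = 0.44 and with CG5028 at r = 0.30. The positive values of CG6439 rested on restrained replicate 3. Without it they were -0.31 and -0.35 over 9 libraries, while l(1)G0156 with CG5028 was at r = 0.97 and Idh with both at r = 0.88 and 0.85. In the 20 heads l(1)G0156 with CG5028 was at r = 0.60, lower than in other parts, and CG6439 with CG5028 at r = 0.55, higher than in other parts (0.59 and 0.50 without restrained dATF-2KO heads replicate 3). The genes with the most similar pattern in other parts were searched among 9996 genes of at least 5 FPKM. For Idh they were CG17360, CG10170 and betaTry, a gut trypsin (r = 0.96 to 0.97), and for l(1)G0156 mfas, Pgi, a glycolytic isomerase, and CR44116 (r = 0.99). For CG6439 they were ptr, CG12111 and CG7927, for CG5028 CG43367, larp and ATPCL, which makes cytosolic acetyl-CoA from citrate. For CG32026 they were CG7860, CG14540 and TTLL3B, and for CG3483 CG9570, CG32462 and CG4669 (r = 0.99 for each). In heads, among 7949 genes, the closest to CG5028 was kdn, the gene of citrate synthase (r = 0.91), with MED24 and Tsp after it. The closest to Idh was CG14439 (r = 0.93), followed by CG3835 and CG8801. For l(1)G0156 they were KrT95D, CG6512 and Hil, and for CG6439 Psn, l(2)34Fc and CG17352, at r = 0.75 to 0.78. Each is the highest of many correlations over few libraries. Without the libraries with egg and yolk RNA, 4 of the 18 genes named for other parts and 7 of the 12 named for heads were still among the 3 closest, although the named genes kept r = 0.82 to 0.99 in other parts and r = 0.71 to 0.93 in heads.

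In the tables tested, paternal restraint changed no member past the thresholds of adjusted p under 0.05 and 1.4-fold. Restraint was not tested in other parts with w1118 fathers, where the paper reports most of its changed genes. The paper reports genes of the TCA cycle, with isocitrate dehydrogenase among them, as lowered by paternal restraint. The libraries of w1118 other parts name neither sample nor group, so that report was not tested. In dATF-2KO other parts all 6 members passed the filter of a mean of 1 FPKM, and 0 were called, where 0.146% of 12363 genes were. At an unadjusted p under 0.05, Idh was the single member, against 7.33% of all genes tested. In dATF-2KO heads 5 members were tested, 0 were called against 0.01% of 9975 genes, and 0 had an unadjusted p under 0.05 against 10.4%. In w1118 heads 4 members were tested, 0 were called against 0.0907% of 9924 genes, and 0 had an unadjusted p under 0.05 against 15.7%. CG3483 in heads and CG32026 in w1118 heads were below the filter. Restrained and unrestrained libraries overlapped for every member in every table tested.

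Idh in dATF-2KO other parts averaged 548 ± 33.8 FPKM with restrained fathers and 601 ± 37.8 FPKM with unrestrained fathers (SD, n = 5 each). The log2 difference was -0.13 (SE 0.05, 95% interval -0.25 to -0.01, adjusted p = 0.640 by limma). Of the restrained libraries, 4 were below all unrestrained ones, and replicate 1 at 606 FPKM was within them. Without restrained replicate 3, the library with egg and yolk RNA, the difference was -0.12. In these libraries 11 accessory gland and ejaculatory duct genes also summed to 31938 to 35770 FPKM with restrained fathers and 24267 to 27870 FPKM with unrestrained fathers. Of the 11, 5 had a positive log2 difference, with a median of -0.04 against -0.02 over all genes tested. At an unadjusted p under 0.05 by limma, 3 were higher and 3 lower, against 7.33% of all genes. Of the 11, 1 was called, as higher, against 0.146% of all genes. Acp95EF at 9047 to 12205 FPKM and Acp98AB at 6000 to 12911 FPKM, over both groups, made up much of the sums. The part of the 11 genes in the Idh difference was not tested.

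The mitochondrial subunits of dATF-2KO other parts differed less than their spread. The log2 difference of l(1)G0156 was -0.08 (95% interval -0.24 to 0.08), that of CG6439 -0.03 (-0.13 to 0.08) and that of CG5028 -0.07 (-0.25 to 0.10), with adjusted p of 0.849 to 0.919 by limma. Without restrained replicate 3 they were -0.03, 0.02 and -0.03. CG32026 stood at -0.01 (-0.17 to 0.15) and CG3483 at -0.09 (-0.25 to 0.07), with adjusted p of 0.987 and 0.842 by limma. Without restrained replicate 3 these were 0.03 and -0.05. All intervals lie inside a 1.4-fold change in either direction.

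In dATF-2KO heads Idh averaged 317 ± 2.41 FPKM with restrained fathers and 325 ± 10.6 FPKM with unrestrained fathers (SD, n = 5 each), a log2 difference of -0.04 (95% interval -0.08 to 0.01, adjusted p = 0.608 by limma). The subunit genes stood at -0.02 for l(1)G0156, -0.01 for CG6439 and 0.03 for CG5028, each with an interval within 0.08 of 0. CG32026, on 29 to 60 reads a library, stood at -0.00 with a far wider interval of -0.26 to 0.25, and at -0.19 with quantile normalization (adjusted p = 0.751 by limma). Without restrained replicate 3, Idh was at -0.04 and the others at -0.01, -0.00, 0.04 and -0.01. Idh was at -0.02 without unrestrained replicate 1, its highest library, and at -0.06 with quantile normalization.

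In w1118 heads Idh averaged 337 ± 3.65 FPKM with restrained fathers and 323 ± 16.0 FPKM with unrestrained fathers (SD, n = 5 each), a log2 difference of 0.06 (95% interval -0.01 to 0.13, adjusted p = 0.389 by limma). Without unrestrained replicate 3, the lowest library at 297 FPKM, it was 0.03 (adjusted p = 0.450 by limma). Here l(1)G0156 stood at -0.01, CG6439 at 0.03 and CG5028 at 0.01, with adjusted p of 0.617 to 0.937 by limma. In these heads the mean log2 level of 8 neuron genes was 6.21 to 6.32 with restrained and 5.92 to 6.14 with unrestrained fathers, and that of 13 photoreceptor genes was 9.87 to 9.91 with restrained and 9.97 to 9.98 with unrestrained fathers. Of the 8 neuron genes, 5 were higher and 0 lower at an unadjusted p under 0.05 by limma, and 1 was called higher. Of the 13 photoreceptor genes, 1 was higher and 9 lower at that p, and 0 were called. Over all genes tested, 15.7% had such a p and 0.0907% were called. The part of both lists in the values of the members was not tested.

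**Figure D4:**
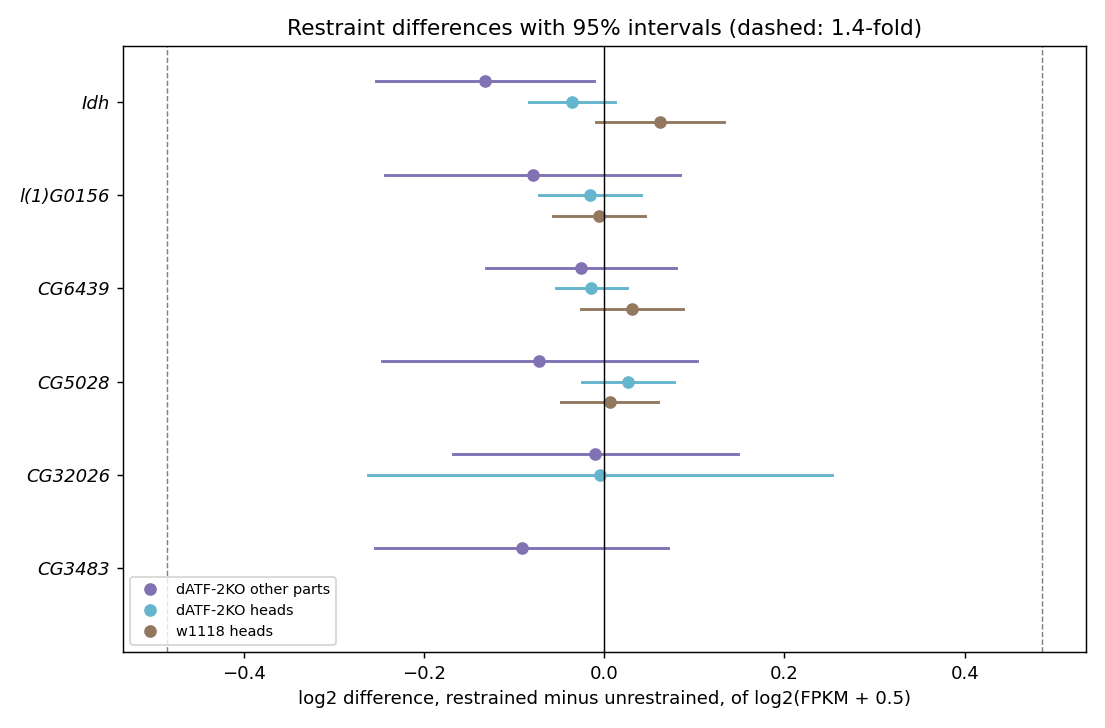
Log2 difference, restrained minus unrestrained, of log2(FPKM + 0.5) (horizontal axis) for each member tested in 3 comparisons (n = 5 against 5), with 95% intervals from limma (lines) and a 1.4-fold change (dashed). All intervals lie within the dashed lines, and that of Idh in dATF-2KO other parts, from -0.25 to -0.01, is the only one that leaves out 0.

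The restraint difference of Idh was lower in dATF-2KO heads than in w1118 heads by a log2 value of -0.10 (SE 0.04, 95% interval -0.18 to -0.02), which did not pass (adjusted p = 0.335 by limma). Of the 4 members tested 0 passed, against 0.153% of 9808 genes, and Idh alone had an unadjusted p under 0.05, against 11.6%. For l(1)G0156 this difference between genotypes was -0.01, for CG6439 -0.04 and for CG5028 0.02. Between heads and other parts of the dATF-2KO series, 0 of 5 members tested passed, against 0.0214% of 9350 genes, and 0 had an unadjusted p under 0.05, against 8.62%. The difference, heads minus other parts, was 0.10 for Idh, 0.06 for l(1)G0156, 0.01 for CG6439, 0.10 for CG5028 and 0.01 for CG32026, with adjusted p of 0.670 to 0.993 by limma. These were, without restrained replicate 3 of the other parts, 0.08, 0.02, -0.03, 0.06 and -0.04, and without restrained replicate 3 of the heads 0.09, 0.07, 0.02, 0.11 and -0.00. With quantile normalization Idh was at 0.05 and CG32026 at -0.20. Genotype or tissue and table cannot be told apart in these tests either. By the paper, heads and other parts were shaken apart from frozen flies, so libraries of both tissues may come from the same flies. The fit between tissues took all libraries as independent and did not model such a pairing.

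None of the shares of the family tested within a library passed a test against restraint. Idh took 41.8% of the family's summed FPKM with restrained and 43.1% with unrestrained fathers in dATF-2KO other parts (exact two-sided permutation p = 0.127). In dATF-2KO heads it took 45.1% with restrained and 45.7% with unrestrained fathers (exact permutation p = 0.365). These differences of Idh were, without restrained replicate 3, -1.72 percentage points in other parts and -0.819 in heads, with Benjamini-Hochberg values of 0.321 and 0.464 from exact permutation. In w1118 heads it took 46.8% with restrained and 45.9% with unrestrained fathers (exact permutation p = 0.0714). The share of CG32026 and CG3483 together in dATF-2KO other parts was 11.6% with restrained and 11.3% with unrestrained fathers (exact permutation p = 0.730). The share of l(1)G0156 among the subunits differed by less than 0.5 percentage points between the means in each table. Over the 9 tests the lowest Benjamini-Hochberg value was 0.571, and 5 against 5 libraries cannot go below an exact p of 0.00794.

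The other enzymes of the pathway gave no calls in the tables tested either. Of 13 widely expressed TCA cycle genes, 0 were called by limma in any of the 3 tables. In dATF-2KO other parts all 13 had a negative log2 difference, with a median of -0.09 against -0.02 over all genes tested, and 3 of the 13 had an unadjusted p under 0.05, all lower, against 7.33% of all genes. With restrained replicate 3 left out, 1 of the 13 was positive, the median was -0.05 against -0.00, and 0 had an unadjusted p under 0.05, against 6.98% of all genes. The 3 genes with all libraries were Scsalpha and skap, genes of succinyl-CoA ligase, and CG5214, a 2-oxoglutarate dehydrogenase component. CG5214 averaged 175 ± 13.5 FPKM with restrained and 193 ± 14.0 FPKM with unrestrained fathers (log2 difference -0.15), and skap 493 ± 32.9 FPKM with restrained and 531 ± 17.2 FPKM with unrestrained fathers (log2 difference -0.11, SD and n = 5 throughout). In dATF-2KO heads 3 of 13 differences were positive with a median of -0.03 against -0.00 over all genes, and 2 had an unadjusted p under 0.05, both lower, against 10.4%. The list was led by l(1)G0255, a fumarase gene (-0.06), and SdhA of succinate dehydrogenase (-0.05). In w1118 heads 7 of 13 were positive with a median of 0.00 against -0.01, and 4 had an unadjusted p under 0.05, 1 higher and 3 lower, against 15.7%. The smallest p belonged to SdhB (-0.06) and l(1)G0255 (-0.06). Among the sources of NADPH beside Idh (Zw, Pgd, Men and Men-b) 0 of 4 were called. The malic enzyme genes Men and Men-b led by p in dATF-2KO other parts (both -0.07) and in w1118 heads (both -0.06), and Men (-0.05) and Pgd (-0.02) in dATF-2KO heads. Of 5 genes for the entry of pyruvate 0 were called. CG1516, the gene of pyruvate carboxylase (-0.11), and CG5261 (-0.07) led in dATF-2KO other parts, l(1)G0334 (0.04) and CG11876 (-0.04), genes of the pyruvate dehydrogenase complex, in dATF-2KO heads, and CG11876 (-0.02) and CG5261 (-0.01) in w1118 heads.

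CG32026 and CG3483 were not alone in their distribution. Of 13 further paralogs of TCA cycle enzymes, 12 had 13.0 to 198 FPKM in dATF-2KO other parts and 0 to 0.720 FPKM in heads. The exception was CG1544, at 8.26 to 9.68 FPKM in dATF-2KO other parts and 12.9 to 15.6 FPKM in heads. With restraint, 0 of the 13 were called in dATF-2KO other parts, 4 had a positive difference, and the median was -0.02, the same as over all genes tested. With restrained replicate 3 left out, 9 were positive, with a median of 0.02 against -0.00 over all genes. CG31874 (-0.11) and CG4706 (-0.09) had the smallest p there. In heads CG1544 was the only one above the filter, at -0.06 in dATF-2KO heads and -0.05 in w1118 heads.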

How the data were processed

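The authors mapped reads to dm3 with TopHat2 and deposited FPKM values from Cufflinks and Cuffnorm in 4 tables, each scaled on its own. CASAVA also stands in the submitters' processing notes, with no version of any program. The paper names a stranded total RNA kit and the labels another kit. The authors' columns of ratios, p-values, q-values and related estimates were not used, nor were 12 library columns that name neither sample nor group. For this reason the comparison planned for w1118 other parts was not made. Each other table was fitted with limma 3.58.1 (mean-variance trend, R 4.3.3) on log2(FPKM + 0.5) over genes that averaged 1 FPKM or more in the table, with Benjamini-Hochberg adjustment over the table and thresholds of 0.05 and 1.4-fold. Such fold changes understate those of low genes. The fits were tested on simulated data. Differences between tables were limma interactions, and shares were compared by exact permutation.

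The text names the 6 members, the 2 genes of smallest p in each pathway list and table, unless any was called, and the 3 genes most correlated with each member among those of at least 5 FPKM. The members and lists were chosen with earlier results of these data known. Scsalpha was named after its values were seen. Gene names were matched to RefSeq for all 6 members (Release 6, used for names only). Depth in reads is unknown beyond the steps in the values, and counting errors cover counting only. Alternatives were another pseudocount, filter and scaling, a replicate block, no fold threshold and leaving out each library. Mean shares, correlations and lists without the 2 libraries with egg and yolk RNA were added after the data were seen.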

Additional observations from a re-analysis of the deposited data

Results flagged for a closer look

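Of 36 sets of 5 libraries checked for the 6 genes, 3 had a library that lay far from the other 4, where chance gives about 1 in 20. CG6439 was lowest in restrained replicate 3 of the dATF-2KO other parts, at 205.2 FPKM with the next at 233.4 FPKM. This library also held egg and yolk RNA. CG5028 was highest in restrained replicate 1 of the w1118 heads, at 149.4 FPKM with the next at 141.8 FPKM. The alpha subunit gene l(1)G0156 was highest in restrained replicate 1 of the dATF-2KO heads, at 132.2 FPKM with the next at 127.6 FPKM.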

How the results depend on the processing

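Over 502 values of single members under the alternatives 0 were called, and the lowest adjusted p was 0.265 by limma. Signs turned for 30 of them. With quantile normalization CG32026 was at 2.25e-04 in dATF-2KO other parts and, between tissues, CG6439 at -2.31e-04 and CG32026 at -0.20, where CG32026 in dATF-2KO heads was at -0.19. With median scaling l(1)G0156 in w1118 heads was at 0.00211. By medians instead of means, the share of the paralogs in dATF-2KO other parts differed by -0.377 and that of Idh in dATF-2KO heads by 0.103 percentage points.

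Counts over all genes moved more. In dATF-2KO other parts 3 were called lower, against 1 at a minimum of 5 FPKM and 5 with no fold threshold. In w1118 heads 5 were called higher and 4 lower, against 3 higher with quantile normalization, and 64 and 46 with no fold threshold. In dATF-2KO heads 1 was called lower, and 5 with no fold threshold. Between tissues 2 passed, against 5 at a minimum of 5 FPKM and 6 with quantile normalization.

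Within a table, replicate numbers did not pair restrained with unrestrained libraries. The correlation of same-numbered libraries was -0.118 to 0.142, and 1 of 5 correlated best with its own number in each table. Pairing of heads with other parts by number was not checked, and restrained replicate 3 held yolk RNA in both tissues of the dATF-2KO series. With the replicate block 0 genes were called lower in dATF-2KO other parts, 0 higher and 0 lower in w1118 heads, and 0 passed between genotypes and between tissues.

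Without each library in turn, genes called higher and lower were 7 to 15 and 1 to 4 in dATF-2KO other parts, 0 to 2 and 1 to 2 in dATF-2KO heads, and 2 to 5 and 0 to 4 in w1118 heads. Between genotypes 9 to 20 passed and between tissues 2 to 12. The share of the paralogs then differed by -0.248 to 0.594 percentage points in dATF-2KO other parts and -0.00354 to 0.0105 in dATF-2KO heads. In the same way the restraint difference was -0.0560 to 0.0334 for CG32026 and -0.0398 to 0.0159 for CG6439 in dATF-2KO other parts, -0.0580 to 0.0322 for CG32026 in dATF-2KO heads, and -0.0117 to 0.0127 for CG5028 and -0.0160 to 0.00594 for l(1)G0156 in w1118 heads. Between genotypes l(1)G0156 was at -0.0267 to 0.00501, and between tissues CG32026 at -0.0484 to 0.0515 and CG6439 at -0.0299 to 0.0258. The causes were not tested. Alternatives for w1118 other parts were not run. CG3483, with 0 to 8 reads a head library, was not tested in heads. Its reads came to 9 with restrained and 4 with unrestrained fathers in dATF-2KO heads, and to 4 and 17 in w1118 heads.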
